A study of Mus musculus with 6 samples.

Results

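The annexins described here are 9 genes of the mouse family: Anxa1, Anxa2, Anxa3, Anxa4, Anxa5, Anxa6, Anxa7, Anxa8 and Anxa11. They were taken by gene name out of 58178 genes, and the family was chosen by the summed level of Anxa11, which was higher in propionate than in chloride in these same libraries. This used the comparison of the salts, so the differences between salts below are descriptions, and members other than Anxa11 are given by counts of calls, with no p-value printed. All 9 were found, and 8 passed the filter on low values, a mean of at least 1 TPM (a relative transcript abundance, corrected for transcript length and library total). Anxa3 was the member left out by the filter.

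The cells were GL261, a line grown from a mouse glioma, so every library came from the same line, with no other genotype and no animal host. The propionate group had 3 libraries of total RNA, labelled 1, 4 and 5, taken 4 h after sodium propionate at 1 uM per the labels. The chloride group had 3 libraries, labelled 1, 2 and 3, taken 4 h after sodium chloride at the same dose, which supplies the same cation. Gut bacteria release propionate, a short-chain fatty acid, and the series asked which transcripts of these cells it changes.

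Annexins bind negatively charged phospholipids at the inner face of membranes when calcium rises. Each has a conserved core that holds the calcium and lipid, and an amino-terminal stretch that differs between members and binds partners, among them S100 proteins. They take part in membrane repair, vesicle transport and the surface handling of plasminogen, and glioma cells are known to make several of them.

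The sequences that matter for reading these genes are those where transcript models differ. The first pair is the alternative exons of Anxa6 and Anxa7, which some models of the gene hold and others skip, shown in capitals with 20 bases of each neighbouring exon in lower case. Exon 21 of the 26 exons of Anxa6 has 18 bases at chr11:54987051-54987068 on the minus strand, and exon 6 of the 14 exons of Anxa7 has 66 bases at chr14:20467458-20467523 on the minus strand. All sequences and positions are from GENCODE M21 on GRCm38, the same build as mm10.
Anxa6 exon 21: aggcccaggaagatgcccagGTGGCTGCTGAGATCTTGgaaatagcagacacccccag
Anxa7 exon 6: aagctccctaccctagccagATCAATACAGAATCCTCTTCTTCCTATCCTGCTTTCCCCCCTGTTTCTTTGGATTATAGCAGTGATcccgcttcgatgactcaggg

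The second set is the start of the copied stretch of Anxa11. Capitals mark the first 40 bases of Anxa11 exon 8 (the exon lies at chr14:25876661-25876751, plus strand) and the same bases at the start of 2 unprocessed pseudogenes on the same strand, Gm2260 (exon 1 at chr14:26016431-26016521) and Gm2274 (exon 1 at chr14:26156036-26156135). Lower case is the end of Anxa11 exon 7, which neither copy holds, and the 9 bases that precede the copied stretch in Gm2274.
Anxa11: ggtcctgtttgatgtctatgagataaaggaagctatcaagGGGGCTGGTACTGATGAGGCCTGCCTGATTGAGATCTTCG
Gm2260: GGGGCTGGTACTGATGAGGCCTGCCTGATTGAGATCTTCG
Gm2274: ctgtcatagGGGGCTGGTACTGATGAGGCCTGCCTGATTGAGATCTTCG
A read that lies inside the capitals is the same for the 3 loci. The last sequence is where the short Anxa11 model leaves the full-length one: lower case is the end of exon 11 and capitals are the 60 bases read on into the next intron, at chr14:25879178-25879237, which the full-length model splices out.
Anxa11 short model: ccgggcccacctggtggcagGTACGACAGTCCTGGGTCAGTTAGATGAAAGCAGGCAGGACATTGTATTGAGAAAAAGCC

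The libraries held 9.33 to 11.3 Gb of counted bases in propionate and 9.15 to 9.47 Gb in chloride. Levels are TPM summed over the models of a gene and divided by a factor per library, from 0.966 to 0.972 in propionate and from 0.990 to 1.09 in chloride, and are called scaled TPM. In propionate 1 and chloride 3 fewer models had any coverage, 71192 and 71452, against 81178 to 82370 in the other 4 libraries. Of 8 markers of glioma and neural stem cells 6 had a mean of at least 1 TPM, with summed levels of 3672 to 4012 in propionate and 3361 to 3811 in chloride. Vim alone had 2764 to 3400 TPM in the 6 libraries and so made up most of these sums. Olig2, at 1.15 to 1.96 TPM, was low, Gfap had 0.547 to 1.31 TPM, and Slc1a3 reached at most 0.120 TPM. Among 7 macrophage and microglia markers Cd68 and Csf1r passed 1 TPM, Itgam and Tyrobp were listed at 0 in all 6 libraries, and the summed level was 4.76 to 6.14 in propionate and 4.61 to 6.26 in chloride. Of endothelial, neuronal, lymphoid and erythroid markers 0 had a mean of 1 TPM, and 2 of 4 fibroblast and pericyte markers did, with sums of 76.4 to 100.3 in propionate and 87.0 to 99.7 in chloride.

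Anxa2 stood far above the rest of the family in these cells. The order of levels was Anxa2, Anxa1, Anxa5, Anxa6, Anxa7, Anxa4, Anxa8, Anxa11 and Anxa3, and it was the same in each of the 6 libraries, with no overlap between neighbours in the order over the 6 libraries. Anxa2 made up 55.7% of the summed scaled TPM of the 9 genes, Anxa1 17.0%, Anxa5 12.2%, Anxa6 7.65%, Anxa7 4.02% and Anxa4 2.57%. The other 3 were minor, with Anxa8 at 0.596%, Anxa11 at 0.177% and Anxa3 at 0.0194%. Among genes with a longest transcript of at least 200 nt, only 33, 19 of them protein-coding, had a higher mean than Anxa2, while 10040 lay above Anxa11. In bulk RNA, fewer cells making a transcript and less of it per cell cannot be told apart. The summed level of the 9 genes was 3368, 3720 and 3542 TPM in propionate 1, 4 and 5, against 3350, 3376 and 3246 TPM in chloride 1, 2 and 3. The 3 remaining mouse genes of the family had means under 1 TPM and were not tested. Anxa9 averaged 0.976 ± 0.189 TPM in propionate and 0.734 ± 0.0921 TPM in chloride (SD, n = 3 each). Its mean over the 6 libraries, 0.855 TPM, was above that of Anxa3, 0.665 TPM. The propionate libraries of Anxa9 all lay above its chloride libraries, which 5.21% of the genes tested showed. Anxa10 and Anxa13 were listed at 0 in every library.

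**Figure D1:**
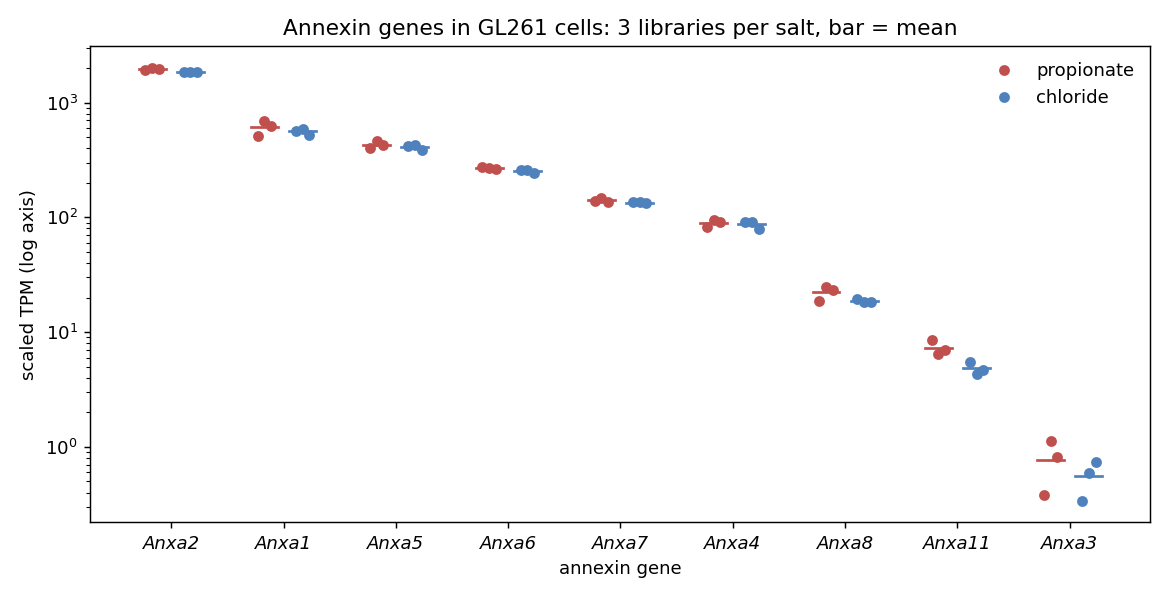
Scaled TPM of the 9 annexin genes on a log axis, ordered by mean level, with 3 propionate libraries (red, left) and 3 chloride libraries (blue, right) per gene and a bar at each mean. Genes differ from 1912 TPM for Anxa2 down to 0.665 TPM for Anxa3, while the salts lie close together within each gene.

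For the members other than Anxa11 the libraries of the salts lay close together. Of the 7 others that could be tested, 0 had an adjusted p under 0.05 by limma, a linear model fitted across all genes, where 0.00646% of all 15482 genes tested did. None of the 7 had an unadjusted p under 0.05 either, beside 5.08% of all genes, and voom on estimated reads gave 0 of 7 by both measures. All 7 were higher by sign in propionate (51.7% of all genes were). Their median log2 difference was 0.08, beside 0.01 over all genes. That direction depended on the scaling: with TPM as deposited 3 of the 8 tested members were higher by sign, Anxa1, Anxa8 and Anxa11, and the median over the 8 was -0.01, where the median of all genes was itself -0.08. The groups did not overlap for 2 of the 7, Anxa2 and Anxa6, both higher in propionate, which 5.21% of all genes were. Because Anxa11 chose the family through this comparison, nothing is read from these counts.

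Anxa2, which binds S100a10 as a heterotetramer and carries plasminogen at the cell surface, had 1930, 2019 and 1972 scaled TPM in propionate 1, 4 and 5, against 1849, 1849 and 1854 TPM in chloride 1, 2 and 3. Every propionate library lay above every chloride library, and the chloride libraries were nearly equal. The log2 difference of (TPM + 1) was 0.09 (SE 0.07, 95% interval -0.06 to 0.25). With TPM as deposited the libraries overlapped, at 1876, 1950 and 1906 TPM in propionate and 2014, 1830 and 1910 TPM in chloride, and the log2 difference was -0.0045.

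Anxa1, the glucocorticoid-induced protein that restrains cytosolic phospholipase A2 and acts on formyl peptide receptors once released, had 510, 693 and 623 TPM in propionate and 566, 593 and 523 TPM in chloride. Propionate 1 was the lowest of all 6 and propionate 4 the highest, so the groups overlapped fully (log2 0.11, SE 0.12, 95% interval -0.17 to 0.39). Its receptors were close to absent, with Fpr1 between 0 and 0.302 TPM and Fpr2 at 0.0304 TPM in propionate 4 and listed at 0 elsewhere.

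Anxa5, whose affinity for phosphatidylserine makes it the usual probe for apoptotic cells, had 404, 461 and 425 TPM in propionate and 420, 424 and 389 TPM in chloride. These values interleave, with a log2 difference of 0.06 (SE 0.07, 95% interval -0.10 to 0.23). Anxa4, a membrane-bound member known from secretory epithelia, had 82.3, 95.5 and 91.6 TPM in propionate and 92.0, 90.3 and 78.5 TPM in chloride. Its groups overlapped too, and its difference of 0.05 (SE 0.09, 95% interval -0.16 to 0.25) was the smallest of the family.

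Anxa6, the member with a duplicated core, had 275, 271 and 263 TPM in propionate and 261, 260 and 245 TPM in chloride. All propionate libraries were above all chloride libraries, by a log2 difference of 0.08 (SE 0.05, 95% interval -0.05 to 0.21), and with TPM as deposited this was -0.02. Anxa7, which fuses membranes and binds sorcin, had 139, 149 and 136 TPM in propionate and 137, 136 and 132 TPM in chloride. Here the groups overlapped slightly (log2 0.07, SE 0.06, 95% interval -0.07 to 0.20).

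Anxa8, a member found on late endosomes, had 18.7, 24.8 and 23.2 TPM in propionate and 19.5, 18.3 and 18.4 TPM in chloride. Propionate 4 and 5 stood apart while propionate 1 lay among the chloride libraries. Its log2 difference of 0.23 (SE 0.11, 95% interval -0.02 to 0.48) was the highest of the 7 and stayed positive under each of 18 other settings, from 0.14 to 0.34. Anxa1 also stayed positive in all 18, from 0.0093 to 0.23. These settings reuse the same 6 libraries, so nothing is read from the sign. Anxa3 ranged over 0.381 to 1.13 TPM in propionate and 0.341 to 0.741 TPM in chloride, too low to be tested.

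**Figure D2:**
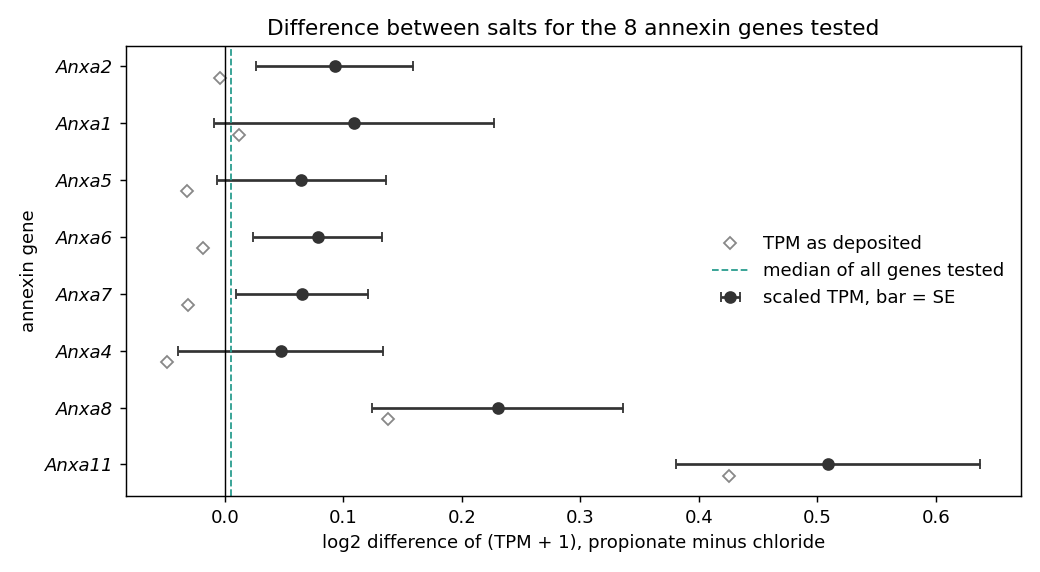
Log2 difference of (scaled TPM + 1), propionate minus chloride, for the 8 tested annexin genes in order of level (filled points, bars are the SE), with the value from TPM as deposited (open diamonds) and the median of all genes (dashed). Anxa11 at 0.51 lies to the right of Anxa8 at 0.23 and the other 6, which are between 0.05 and 0.11.

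Anxa11, which in human and rat neurons ties RNA granules to lysosomes and whose human gene is mutated in some families with amyotrophic lateral sclerosis, is on chromosome 14 at 25842156 to 25886804, plus strand. Its summed level was 8.51, 6.42 and 7.03 TPM in propionate 1, 4 and 5 and 5.49, 4.30 and 4.72 TPM in chloride 1, 2 and 3. The lowest propionate library was above the highest chloride library, and the log2 difference was 0.51 (SE 0.13). These are the values for which the family was chosen, so they are a description.

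The TPM of Anxa11 fell on different transcript models in the 2 salts. The full-length model ENSMUST00000022416, with 15 exons, had 0.476, 0 and 0 scaled TPM in propionate 1, 4 and 5, against 4.02, 2.92 and 3.45 TPM in chloride 1, 2 and 3. The short model ENSMUST00000112364, with 11 exons, had 7.43, 4.24 and 6.33 TPM in propionate, against 0, 0.00457 and 0.0733 TPM in chloride. Thus the full-length model was the one mainly assigned in chloride and the short one in propionate, with no overlap between the salts for either, where 12.3% of all models tested had none. A model with retained introns that stops at exon 11, ENSMUST00000124704, had 0.258, 1.14 and 0.242 TPM in propionate and 1.47, 1.38 and 1.19 TPM in chloride. The fourth model, ENSMUST00000133547, which keeps 1 intron and reaches exon 15, had 0.352, 1.04 and 0.456 TPM in propionate and 0, 0 and 0.000496 TPM in chloride. Models that reach exon 15 were therefore assigned in both salts. Each of these zeros can be a failed estimate, because the quantifier divides reads among models that share exons.

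**Figure D3:**
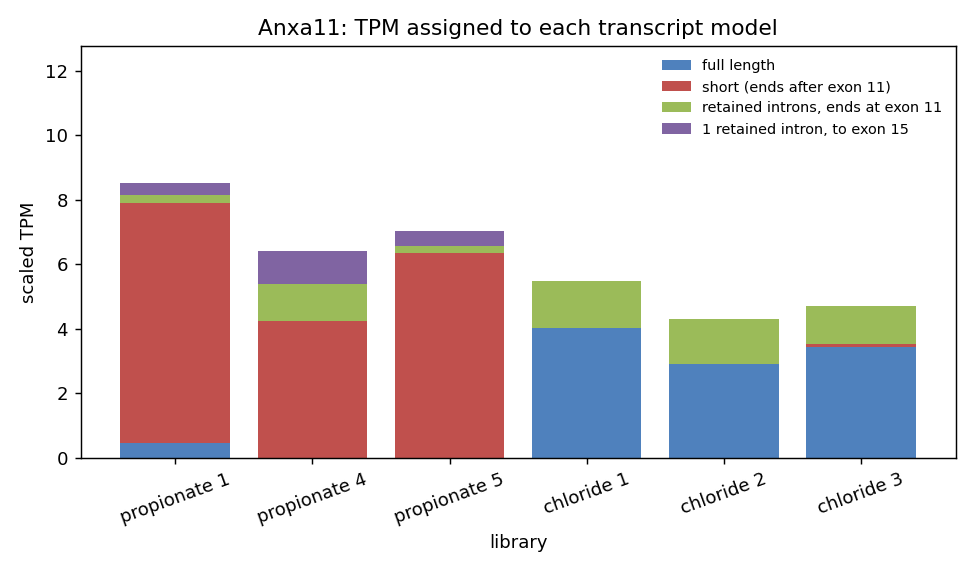
Scaled TPM assigned to the 4 Anxa11 models, stacked per library, with propionate libraries on the left. The short model holds most of the total in the 3 propionate libraries and the full-length model in the 3 chloride libraries.

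Coverage of the last exon of the short model, part of which no other model holds, was low. The level of an exon is its mean base coverage put on the scaled TPM scale, so an evenly covered model has its TPM at each exon. In the short model, exon 7 had levels of 14.2, 8.64 and 12.7 in propionate 1, 4 and 5. Exon 10 of the short model, inside the copied part, was already down to 1.75, 2.57 and 2.25 in these libraries. The last exon of the model has 424 bases, which include the 94 shared bases of exon 11 and the stretch printed above. It had levels of 0.146, 0.469 and 0.316 in the same libraries, and the unshared bases were not measured apart. In chloride that last exon had 0, 0.0175 and 0.0918. Most of the TPM of the short model in propionate thus came from exons it shares with the full-length model.

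Exons 8 to 14 of Anxa11, and the start of exon 15, have exact copies nearby. Gm2260 holds the 600 bases of exons 8 to 14 and the first 57 of the 794 bases of exon 15 with 0 mismatches, 139770 bases downstream. Gm2274 holds the 600 bases of exons 8 to 14 with 0 mismatches, 279384 bases downstream, and as annotated nothing of exon 15. An assembled model of Gm2274 in the files has a further exon that lies over 791 bases of exon 15 at that same distance, and its sequence was not compared here. Of the 4160 words of 31 bases in the Anxa11 models, 716 (17.2%) also occur in another gene, against 0 to 4.42% for the other 8 members. Gm2260 held 627 of these words and Gm2274 572, and the antisense gene Anxa11os held 87 on the opposite strand. A read inside exons 8 to 14 is the same for 3 loci, and the level of Anxa11 there is uncertain for that reason.

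The levels of Anxa11 along its exons dropped where the copies begin. Exons 1 to 7 averaged 11.9, 8.35 and 9.50 in propionate and 9.59, 7.29 and 8.002 in chloride. Exons 8 to 15, counting reads given to Anxa11 alone, averaged 1.68, 1.81 and 1.49 in propionate and 1.48, 1.18 and 1.27 in chloride. The ratio of the later to the earlier block was between 0.141 and 0.217 in the 6 libraries. Exon 15, mostly without a compared copy, makes up 794 of the 1394 bases of the later block. Without it, exons 8 to 14 of Anxa11 alone averaged 2.648, 3.295 and 2.665 in propionate and 1.950, 1.958 and 1.879 in chloride. Among the other tested members the later part of the exons stood at 0.730 to 1.55 times the earlier part, exon 1 left out. Averaged over the 6 libraries, exon 7 had a level of 12.99, exon 8 of 8.65, exon 9 of 2.99 and exon 11 of 1.14.

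When the 3 loci were added up exon by exon, the mean of exons 8 to 14 was near that of exons 1 to 7. Over the 6 libraries these means were 9.18 and 9.11. The summed level was not even within either block. It rose from 4.12 in exon 1 to 12.99 in exon 7. From 13.55 in exon 8 it fell to 9.11 in exon 12, and to 5.57 and 5.62 in exons 13 and 14. By library, exons 8 to 14 averaged 9.39, 9.19 and 9.27 in propionate and 10.4, 9.05 and 7.79 in chloride. The chloride libraries thus lay on both sides of the propionate ones. The mean per salt was 9.28 ± 0.0980 in propionate and 9.07 ± 1.30 in chloride (SD, n = 3 each). Exon 15 stayed low at 2.64 over the 6 libraries with the 3 loci added, of which 1.65 was assigned to the assembled model of Gm2274 and 0.793 to Anxa11. Gm2260 itself had 3.60, 4.24 and 3.72 TPM in propionate and 5.28, 5.61 and 3.09 TPM in chloride, and Gm2274 had 2.42, 1.41 and 2.14 TPM in propionate and 2.55, 1.17 and 2.33 TPM in chloride.

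**Figure D4:**
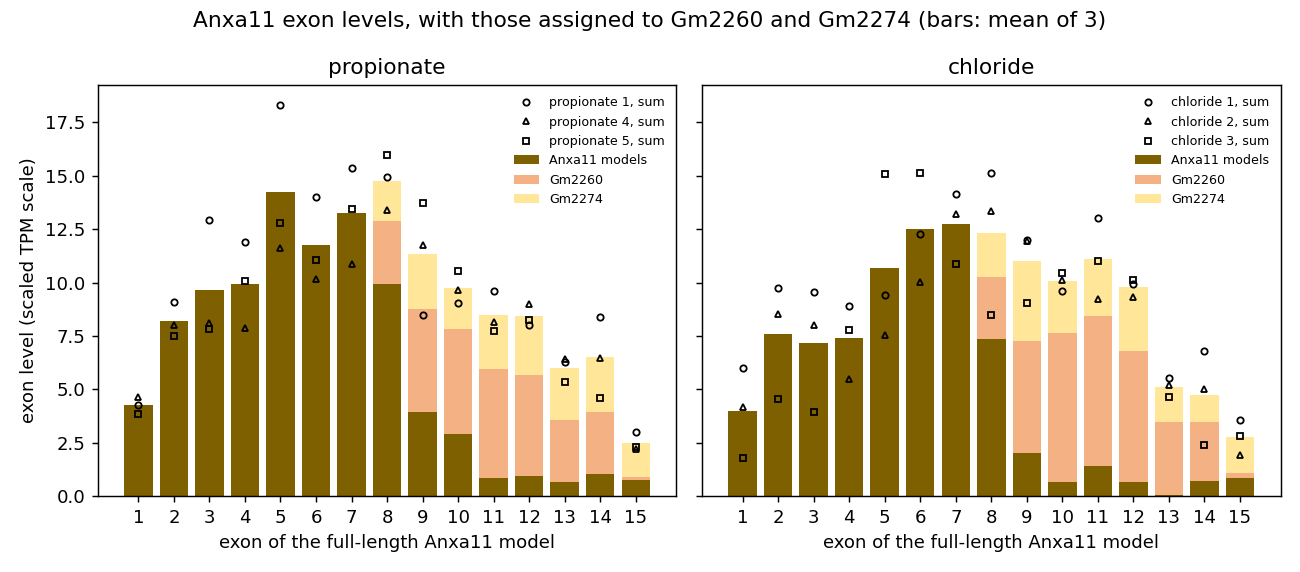
Level of each of the 15 exons of full-length Anxa11, propionate left and chloride right, as stacked means of 3 libraries for reads assigned to Anxa11, Gm2260 and Gm2274, with symbols for the sum in each library. The Anxa11 share shrinks from exon 8 on while the copies fill most of exons 9 to 14 in both salts.

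The size of the Anxa11 difference depended on how its level was defined, and 4 definitions were added after seeing the data. Over exons 1 to 7, which share no 31-base stretch with a copy apart from words that cross the exon 8 boundary, the log2 difference was 0.23 (SE 0.17). Chloride 1, at 9.59, lay above propionate 4 and 5 there. With exon 1 and exon 3 left out as well, since the antisense gene Anxa11os lies over exon 3 and the sources used here do not give the use of strand in the counting, it was 0.22 (SE 0.18). Summing Anxa11 TPM with both copies gave 14.5, 12.1 and 12.9 TPM in propionate and 13.3, 11.1 and 10.1 TPM in chloride, a log2 difference of 0.18 (SE 0.13). Averaging all 15 exons with the copies added gave 7.31 ± 0.935 in propionate and 6.66 ± 0.992 in chloride (SD, n = 3 each), a log2 difference of 0.12 (SE 0.14). In all 4 definitions the salts overlapped. Base coverage summed per gene, which gives transcript length no weight, put Anxa11 at 0.13, and voom on estimated reads at 0.14. The part that the assignment to models and copies has in the 0.51 was not tested. An estimated 445 to 519 reads in propionate and 326 to 439 reads in chloride lay behind exons 1 to 7, and 102 to 135 and 73.6 to 94.2 behind exons 8 to 15 of Anxa11 alone.

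Of the 57 models of the members other than Anxa11, 27 could be tested, and 0 had an adjusted p under 0.05 by limma, beside 0.0364% of all 35755 models tested. At unadjusted p under 0.05 there were 3, beside 4.58% of all models. These were the main Anxa2 model and 2 minor models of other members. The main Anxa2 model had 1908, 1987 and 1892 TPM in propionate and 1836, 1774 and 1737 TPM in chloride. An assembled Anxa2 model, also with 13 exons, took 0, 0 and 46.5 TPM in propionate 1, 4 and 5. In chloride 1, 2 and 3 it took 0, 61.3 and 74.5 TPM. The part that the division of reads between these Anxa2 models has in the difference of the main one was not tested. Anxa4 model ENSMUST00000113675 had 0.307, 0.111 and 0.0593 TPM in propionate and 1.42, 10.9 and 3.28 TPM in chloride. Anxa6 model ENSMUST00000148298 had 4.57, 4.74 and 3.23 TPM in propionate and 9.93, 7.43 and 5.34 TPM in chloride. A single model carried most of the level of Anxa1 (at least 93.9% in every library), Anxa2 (at least 93.7%), Anxa5 (at least 99.9%) and Anxa8 (100%), and Anxa4 had 74.6 to 96.4% on its main model.

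Anxa6 RNA came in 2 forms of similar level in both salts. ENSMUST00000108883, which holds exon 21, had 147, 133 and 129 TPM in propionate and 148, 126 and 129 TPM in chloride. ENSMUST00000102727, which skips it, had 124, 133 and 131 TPM in propionate and 103, 127 and 111 TPM in chloride. The exon, the short alternative exon long known in annexin A6, was covered at 45.2%, 38.1% and 42.7% of its neighbours in propionate and at 48.1%, 39.1% and 42.8% in chloride. These overlap, and they lie below the share of TPM on the model that holds it, 49.5 to 54.3% in propionate and 49.9 to 59.1% in chloride. An exon this short cannot hold a whole read of 101 bases. Its covered bases equal those of an estimated 106 to 119 whole reads in propionate and 88.8 to 112 in chloride. More reads than that touch the exon, and they were not counted.

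Anxa7 also has a cassette exon, known for the larger protein form of brain and striated muscle, and in GL261 cells it was little used. Exon 6 was covered at 2.38%, 3.26% and 2.63% of its neighbours in propionate and at 5.27%, 4.20% and 5.26% in chloride. The salts did not overlap in this measure, which was chosen after its values were seen, and groups that do not overlap were seen for 12.3% of all models. The covered bases of exon 6 equal those of an estimated 11.3, 21.6 and 14.6 whole reads in propionate and 25.1, 19.6 and 21.7 in chloride. The reads that touch this exon were not counted. The model that holds exon 6 took other shares of TPM, 0.0902%, 41.7% and 5.62% of the models across it in propionate and 36.5%, 26.7% and 24.0% in chloride. Those shares varied more between propionate libraries than between the salts, although the gene total was nearly even. The main Anxa7 model ENSMUST00000065504 ranged from 7.70 to 117 TPM in propionate and from 41.8 to 79.4 TPM in chloride, and ENSMUST00000224975 from 5.01 to 99.0 TPM in propionate and from 8.97 to 38.9 TPM in chloride.

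**Figure D5:**
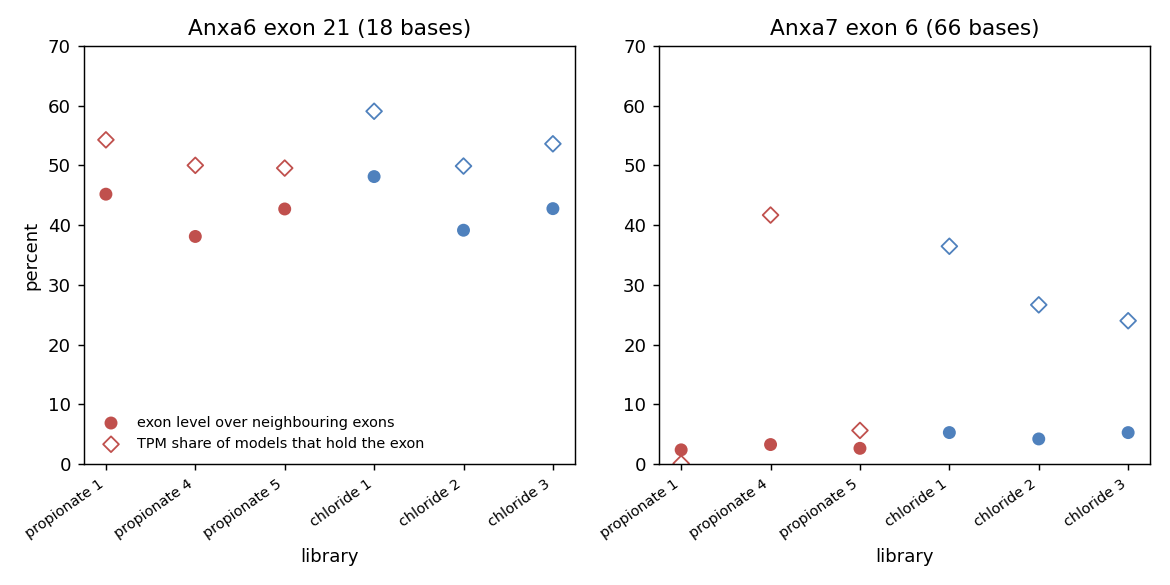
Use of Anxa6 exon 21 (left) and Anxa7 exon 6 (right) per library, propionate red and chloride blue, as exon level over the mean of the neighbouring exons (filled) and as TPM share of the model that holds the exon (open). Anxa6 lies between 38.1% and 59.1% by both measures, while for Anxa7 the exon coverage stays at 2.38 to 5.27% and the model share runs from 0.0902 to 41.7%.

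Partners and pathways of the annexins were read from 8 lists, chosen with earlier results of these data known, and 0 of their tested genes had an adjusted p under 0.05 by limma, nor had any gene of the table with voom. All 8 lists were read in scaled TPM alone, and the direction of the annexin members depended on that scaling. Signs and overlaps in the lists were not counted with TPM as deposited, so nothing is read from them. Of 8 S100 genes, calcium-binding partners of several annexins, 8 were tested and 8 were higher by sign, as were 51.7% of all genes (median log2 difference 0.13, beside 0.01 over all genes), and 1 was higher at unadjusted p under 0.05, beside 2.16% of all genes. That was S100a16, at 30.4, 27.1 and 27.3 TPM in propionate and 26.9, 24.0 and 22.2 TPM in chloride (log2 0.21, SE 0.09, limma adjusted p = 0.921). S100a10, the partner of Anxa2, had 931, 1096 and 997 TPM in propionate and 941, 1011 and 857 TPM in chloride, an overlap (log2 0.11, SE 0.09). S100a11, which binds Anxa1, had 30.0, 25.8 and 24.2 TPM in propionate and 27.0, 21.3 and 24.1 TPM in chloride. S100a6 had 966, 1285 and 1231 TPM in propionate and 1036, 1156 and 997 TPM in chloride, and S100a4 1920, 2584 and 2344 TPM in propionate and 2069, 2222 and 1809 TPM in chloride. In all 4 of these the salts overlapped.

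Of 23 genes of membrane repair and calcium-dependent membrane proteins 20 were tested, with 18 higher and 2 lower by sign (median 0.05), beside 51.7% of all genes higher, and 2 were higher at unadjusted p under 0.05, beside 2.16% of all genes. Cav1, the coat protein of caveolae, had 467, 471 and 486 TPM in propionate and 426, 404 and 364 TPM in chloride (log2 0.26, SE 0.07, limma adjusted p = 0.921). Lgals3, a lectin that marks damaged lysosomes, had 201, 210 and 200 TPM in propionate and 187, 190 and 161 TPM in chloride (log2 0.18, SE 0.08, limma adjusted p = 0.921). In scaled TPM all propionate libraries lay above all chloride libraries for 4 of the 20, beside 5.21% of all genes. These were Cav1, Lgals3, Capn1, a calpain named after its values were seen, at 12.61, 11.57 and 11.24 TPM in propionate and 11.22, 10.64 and 11.22 TPM in chloride, and Pef1, a penta-EF-hand protein, at 23.8, 19.7 and 18.7 TPM in propionate and 18.3, 18.4 and 15.3 TPM in chloride. Its partner Pdcd6, which binds Anxa7 and Anxa11, had 79.1, 83.3 and 80.9 TPM in propionate and 80.8, 75.8 and 80.3 TPM in chloride. Sri, the sorcin that binds Anxa7, had 31.1, 35.1 and 32.0 TPM in propionate and 30.5, 31.7 and 29.7 TPM in chloride, and Ahnak, a scaffold of Anxa2 and S100a10, 332, 362 and 394 TPM in propionate and 364, 389 and 371 TPM in chloride. For these last 3 the salts overlapped. Neither the signs nor the overlaps of this list were counted with TPM as deposited.

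Of 8 plasminogen activation genes 6 were tested, with 5 higher and 1 lower by sign (median 0.03), beside 51.7% of all genes higher. At unadjusted p under 0.05 there were 0, beside 5.08% of all genes. All propionate libraries lay above all chloride libraries for 1 of the 6, beside 5.21% of all genes. Serpine2, a protease inhibitor, averaged 18.3 ± 2.47 TPM in propionate and lay at 16.3 to 17.6 TPM in chloride, and the activator gene Plau lay at 1.06 to 1.37 TPM in propionate and 1.13 to 1.16 TPM in chloride.

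The RNA granule and lysosome list that goes with Anxa11 had 11 genes, all tested. By sign 5 were higher and 6 lower (median -0.03), beside 51.7% of all genes higher. Of the 11, 2 were lower at unadjusted p under 0.05, beside 2.93% of all genes. Tia1, a stress granule protein, had 25.3, 25.4 and 25.4 TPM in propionate and 30.0, 29.5 and 33.1 TPM in chloride (log2 -0.27, SE 0.06, limma adjusted p = 0.921). Rnf167, a lysosomal ubiquitin ligase, had 12.9, 13.4 and 13.2 TPM in propionate and 15.2, 16.1 and 15.6 TPM in chloride (log2 -0.23, SE 0.06, limma adjusted p = 0.921). In both, every propionate library was below every chloride library, which 6.43% of all genes showed. Caprin1, another granule protein, had 230, 224 and 190 TPM in propionate and 212, 168 and 188 TPM in chloride, an overlap.

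The remaining lists were split in direction. Of all genes, 51.7% were higher by sign and 5.08% had an unadjusted p under 0.05. Of 8 phospholipase A2 genes 6 were tested, with 4 higher and 2 lower by sign (median 0.04), and 0 at unadjusted p under 0.05. Pla2g4a, the cytosolic enzyme that Anxa1 restrains, had 2.20, 2.41 and 3.35 TPM in propionate and 2.43, 2.69 and 2.26 TPM in chloride. Pla2g12a, a secreted enzyme, had 17.1 to 20.9 TPM in propionate and 16.7 to 21.1 TPM in chloride, and the lysosomal Pla2g15 12.6 to 14.1 TPM in propionate and 13.1 to 14.2 TPM in chloride. In all 3 the salts overlapped. Of 12 phosphatidylserine exposure genes 9 were tested, with 3 higher and 6 lower (median -0.01), led by the flippase Atp8a1 at 4.45 to 5.26 TPM in propionate and 4.77 to 7.74 TPM in chloride, and 0 were at unadjusted p under 0.05. The scramblase-family gene Plscr3 had 6.86 to 7.25 TPM in propionate and 6.41 to 7.15 TPM in chloride. Of 8 copines, another family of calcium-dependent lipid-binding proteins, 6 were tested, with 4 higher and 2 lower (median 0.10) and 0 at unadjusted p under 0.05. Cpne7 had 1.33, 2.21 and 2.27 TPM in propionate and 2.41, 2.84 and 2.88 TPM in chloride, and Cpne2 had 31.4, 25.9 and 25.9 TPM in propionate and 24.2, 25.3 and 24.0 TPM in chloride. Cpne5 had 4.09, 4.94 and 3.96 TPM in propionate and 3.75, 3.66 and 3.80 TPM in chloride, and the salts overlapped in none of these 3, with Cpne2 and Cpne5 higher and Cpne7 lower in propionate, beside 5.21% of all genes higher and 6.43% lower with no overlap. Of the 3 formyl peptide receptor genes 0 reached the filter.

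The protein-coding genes whose level over the 6 libraries was most like the summed TPM of Anxa11 were Maea (Pearson r = 0.991), Scnm1 (0.984), Eif5a (0.982), Atxn10 (0.981) and Cib1 (0.979), among 10877 candidates. These r are a description over 6 libraries that share the difference between salts, and the highest of many candidates is high by selection. Maea, a ubiquitin ligase subunit, had 102, 98.2 and 98.7 TPM in propionate and 93.9, 90.6 and 92.0 TPM in chloride. Cib1, a calcium- and integrin-binding protein, had 29.5, 26.2 and 26.7 TPM in propionate and 25.2, 21.3 and 21.9 TPM in chloride. As in Anxa11, propionate 1 was the highest library and chloride 2 the lowest in both.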

How the data were processed

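Total RNA of 6 GL261 libraries was prepared with a stranded total RNA kit, per the labels. Per the submitters' processing notes, bcl2fastq, fastp, HISAT2, StringTie and the mm10 build were used, with no role or order given. Per the file headers, StringTie 2.1.1 quantified 1 merged set of models in each library, and the deposited values are TPM, FPKM and base coverage per model and coverage per exon, with no counts. The files held 157296 models, 14805 of them assembled, and 11811 of these were joined to a reference gene. TPM were summed per gene, and each library was scaled by its median ratio to the geometric mean. Genes with a longest transcript under 200 nt were left out, 394 of them averaging at least 1 TPM. The other genes averaging at least 1 TPM entered limma 3.58.1 in R 4.3.3 on log2(TPM + 1) (two-sided, variance trend, Benjamini-Hochberg over all genes, threshold 0.05). A fold change on this scale understates low genes. Reads were estimated as covered bases over a read length of 101 bases, so a read that lies partly on an exon counts in part. Files were read with Python 3.11.15 and pandas 2.3.3.

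Nothing in the labels ties the libraries to separate cultures. The p-values therefore reflect the spread among these 6 samples alone, and that spread may be technical. The dose is as labelled and could not be checked. Members, lists, naming rule and tests were chosen with earlier results of these data known. The rule named every member, its models averaging at least 1 TPM where a result turned on them, the 3 tested genes of each list with the smallest p, certain partners, and the 5 genes most like Anxa11. Some genes that the rule would name are not reported here. The exon-level and copy-summed levels and the cassette measures were added after seeing the data. Other settings covered scaling, filters, pseudocount, gene level, test and single libraries. Protein sequences were not used here.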

Additional observations from a re-analysis of the deposited data

How the results depend on the processing

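Under 18 other settings 0 annexin members had an adjusted p under 0.05 in any. At unadjusted p under 0.05, members other than Anxa11 numbered 2 without propionate 1, beside 1013 of all 15482 genes. There was 1 without propionate 1 and chloride 3 (888 of all genes) and 1 with a term for that pair (1297). There was also 1 with library weights (2152), and 0 in the rest. The median log2 difference of the tested members was 0.09, and -0.011 with TPM as deposited, where Anxa2, Anxa4, Anxa5, Anxa6 and Anxa7 changed sign. Anxa4 did so too with reference transcripts alone and without chloride 3. The median of the tested members ran from -0.011 to 0.11 over the 18 settings. The log2 difference of Anxa11 ran from 0.12 to 0.59 over 22 settings. It was positive in each, but these settings reuse the libraries through which Anxa11 chose the family, so nothing is read from the sign.

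Over all genes 1 passed, against 0 with no filter on low values or with voom (unadjusted p under 0.05 for 1408 and 823), 2 with all models of a locus summed, 5 without propionate 1 and chloride 3, and 1 to 2 when a single library was dropped. Of transcripts 13 passed, against 0 without propionate 1 and chloride 3, 1 with no filter, with voom or with the pair term, 5 with a mean of at least 5 TPM, 21 with library weights, 22 with no variance trend, and 1 to 26 when a single library was dropped. The cause of these moves was not tested. No paired analysis was possible because the salts share only the number 1 in the labels. With 3 libraries per salt and a median SE of 0.11, small differences could not be resolved, and levels near 1 TPM, such as Anxa3, rest on few reads.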
